A study of Mus musculus with 37 samples.

Results

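Plat, the gene of tissue-type plasminogen activator, and Serpine2, the gene of an inhibitor of plasminogen activators also known as protease nexin-1, were followed through meiotic maturation in single mouse oocytes. The pair was chosen by name, as a classic stored maternal mRNA and an inhibitor of its product, and makes up 2 of the 54752 genes and 9 of the 138835 transcripts in the expression tables (3 transcripts of Plat and 6 of Serpine2). RNA was sequenced from 37 oocytes of C57BL/6 females aged 6 to 8 weeks, each oocyte in a library of its own. Batch A held 6 oocytes at the germinal vesicle (GV) stage, the arrested stage before meiosis resumes, and 6 at metaphase II (MII), the stage at which the egg waits for fertilization. Batch B held 10 GV oocytes and 15 at metaphase I (MI), between those stages.

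The females of all groups had received 5 IU PMSG, a hormone that makes follicles grow, and GV oocytes were taken from the ovary 48 h after it. MII oocytes had matured in the animal and came from the ampulla of the oviduct, 15 h after 5 IU hCG, the hormone that triggers ovulation, which was given 48 h after PMSG. MI oocytes had matured outside the animal, as GV oocytes kept for 8 h in M16 medium. The cumulus cells, the zona and any polar body were removed from the oocytes before lysis. How many females gave the oocytes of a group is not given in the sources used here, so that p-values measure the spread between these oocytes. MI and MII oocytes were never in the same batch, and each was therefore compared with the GV oocytes of its own batch.

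Tissue-type plasminogen activator is a secreted serine protease that cuts the zymogen plasminogen into plasmin, which in turn digests fibrin and extracellular matrix. Its mRNA is a textbook example of a dormant oocyte message: it is made while the oocyte grows, is kept with a short poly(A) tail, and is given a longer tail and translated when meiosis resumes. Serpine2 binds plasminogen activators, thrombin and plasmin in a covalent complex that ends their activity. The libraries were primed on poly(A) tails, so that the amount of an mRNA and how well its tail is captured cannot be told apart in these counts.

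Plat (ENSMUSG00000031538.6) lies on the plus strand of chr8:22757727-22782844 and Serpine2 (ENSMUSG00000026249.10) on the minus strand of chr1:79794197-79861180 (GRCm38). No other annotated gene overlaps either of them. The protein coding transcript Plat-201 has 14 exons in 2525 bases and a 3′-UTR of 738 bases, and Serpine2-201 has 9 exons in 2210 bases and a 3′-UTR of 808 bases. The 3′-UTR carries the elements that cytoplasmic polyadenylation reads, so the last 200 bases of each, up to the annotated end, were searched on the transcript strand for the letters TTTTAT and TTTTAAT, the usual forms of the cytoplasmic polyadenylation element, and AATAAA and ATTAAA, the usual poly(A) signals. The stretches that hold a match are given 5′ to 3′ in the mRNA's direction as DNA letters, with every match in capitals.
Plat-201, chr8:22782709-22782738, plus strand: gaactgtatgaTTTTAATaattgatgaata
Plat-201, chr8:22782745-22782774, plus strand: gtatatttataTTTTAATctattttagttt
Plat-201, chr8:22782804-22782833, plus strand: ctgtacttaaatAATAAAttcagaggtatt
Serpine2-201, chr1:79794348-79794377, minus strand: ttgctcttgttgTTTTATatactgcatgtg
Serpine2-201, chr1:79794322-79794351, minus strand: tgtgttcactaaAATAAAgttggaaaacta

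Plat held TTTTAAT at 125 to 119 and at 89 to 83 bases from the annotated 3′ end, and AATAAA at 29 to 24 bases from it. Serpine2 held TTTTAT at 169 to 164 bases and AATAAA at 143 to 138 bases from its annotated end, with no AATAAA or ATTAAA nearer to it. Over 17695 protein coding genes with a 3′-UTR of at least 200 bases, 8.18% of such windows held TTTTAAT, 22.5% TTTTAT, 28.1% at least one of these, 67.2% AATAAA and 25.3% ATTAAA. A match is only a description of the letters, and binding of a factor was not measured here.

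Libraries held from 2709280 to 19390128 expected counts assigned to genes, and all 12 genes of a list of oocyte markers had a mean over 10 CPM (counts scaled to a common library size) in each group. Of 16 granulosa markers, 2 (Cyp19a1 and Nr5a2) reached 10 CPM, and the summed level of the 16 was 30.9 to 60.4 CPM in GV and 35.5 to 49.0 CPM in MII oocytes of batch A, and 28.4 to 70.2 CPM in GV and 26.8 to 80.1 CPM in MI oocytes of batch B. Those sums were mostly Cyp19a1 and Nr5a2, and some low markers moved with stage. Of the 6 tested in batch B, 2 were lower at MI, Gja1 (log2 fold change -3.42) and Ccnd2 (-3.69, edgeR adjusted p = 0.0174 for both), beside 6 of all 12419 genes. On HTSeq counts neither passed (-3.27, edgeR adjusted p = 0.263, and -2.22, edgeR adjusted p = 0.528). In batch A 3 (Ccnd2, Fshr and Inha) were lower at MII once the low-count filter was dropped, beside 1540 of 36863 genes. The test without that filter made many false calls on simulated counts in earlier work on these data. Among the defining markers, Amh had RSEM counts in 1 GV and 1 MII oocyte of batch A, Foxl2 in 3 and 2 and Fshr in 5 and 1, and in batch B Amh and Foxl2 had none in any oocyte. Gja1, Ccnd2 and Inhba had counts in all 10 GV oocytes of batch B. The 6 stroma and theca markers summed to at most 6.92 CPM and the 6 blood markers to at most 14.0 CPM, in MII oocyte 1. Without the filter Cyp11a1 of the former was lower at MII (-2.33 on the log2 scale, edgeR adjusted p = 0.00358). The hemoglobin genes Hba-a1 and Hbb-bs also passed there (edgeR adjusted p = 0.00138 and 0.00240), but nearly all of their counts at MII lay in MII oocyte 1, at 5.18 and 4.66 CPM beside means of 0.908 and 0.830 CPM over the 6 MII oocytes. The 5 endothelial markers summed to 96.2 to 253 CPM in GV and 84.6 to 105 CPM in MII oocytes of batch A, and to 51.7 to 334 CPM (oocyte 4) in GV and 52.7 to 115 CPM in MI oocytes of batch B, mostly as Pecam1, with RSEM counts of Cdh5 at 0 in all groups but MII. Pecam1 was lower at MII on RSEM counts (-1.13 on the log2 scale, edgeR adjusted p = 0.00148) but higher on HTSeq counts (0.62, edgeR adjusted p = 0.0283). The part of other cells in the results was not tested. In batch A, 19574 to 22598 genes had at least 1 count per oocyte, except that MII oocyte 1 had 29816. MI oocyte 15 was the shallowest library, and MI oocytes 4, 8 and 9 stood apart in counting: HTSeq counted about 1.07 to 1.13 times as many reads as RSEM there over well-counted genes, against about 2 in the other oocytes.

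Plat was among the most abundant mRNAs at every stage. CPM were scaled by TMM, edgeR's factor that sets most genes level between the oocytes of a batch, so that a change is relative to the other genes. Divided by the length of the longest annotated transcript (4042 bases for Plat, 3393 for Serpine2), the mean level of Plat ranked 83rd in GV and 59th in MII oocytes among 12929 genes of batch A, and 49th in GV and 46th in MI oocytes among 12419 genes of batch B. Serpine2 ranked 916th and 570th in batch A, and 1638th and 1664th in batch B. Those longest transcripts retain introns and held few of the counts. With the longest protein coding transcript of each gene (2525 bases for Plat, 2210 for Serpine2), a setting added after seeing the data, Plat ranked 50th, 40th, 38th and 38th in the same order, and Serpine2 603rd, 364th, 1162nd and 1182nd.

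Both mRNAs were higher at MII than at GV in batch A on the TMM scale, whereas neither passed the test on library totals or on spike-ins. Plat ranged from 1349.8 CPM (oocyte 5) to 2069.8 CPM (oocyte 2) in the GV oocytes of batch A, with a median of 1836 CPM. In the MII oocytes it ranged from 2255 CPM (oocyte 5) to 2698 CPM (oocyte 3), with a median of 2529 CPM. On this scale every MII oocyte was above every GV oocyte, a gap that 4.08% of the 12929 genes tested showed in this direction. The mean rose from 1719 ± 294 CPM to 2497 ± 148 CPM (SD, n = 6 each), by 0.54 on the log2 scale (SE 0.13, edgeR quasi-likelihood test, Benjamini-Hochberg adjusted p = 0.00859). That is 1.45-fold (95% interval 1.20 to 1.76), below the fold of 2 that the study asked of a differentially expressed gene; 8.47% of the genes passed both conditions, and 9.06% were higher at an adjusted p under 0.05.

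Serpine2, the inhibitor, had a change of much the same size. It ranged from 147 CPM (oocyte 2) to 195 CPM (oocyte 4) in GV oocytes, with a median of 178 CPM. In MII oocytes it ranged from 209 CPM (oocyte 5) to 273 CPM (oocyte 6), with a median of 265 CPM. The stages did not overlap on the TMM scale, and MII oocyte 5, the lowest of its stage for both genes, came nearest to the GV oocytes. The mean rose from 172 ± 19.4 CPM to 252 ± 25.2 CPM (SD, n = 6 each), by 0.56 on the log2 scale (SE 0.12, edgeR adjusted p = 0.00465), or 1.47-fold (95% interval 1.23 to 1.76). Of all genes tested, 87.1% had a lower log2 fold change than Plat and 88.0% a lower one than Serpine2. Without the filter on low counts, where 36863 genes were tested, the adjusted p of Plat was 0.0908 and that of Serpine2 0.0374.

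As a share of all counts of the library, with no TMM factor, the stages overlapped for both genes. Plat took 0.147% to 0.228% of the counts in GV and 0.186% to 0.260% in MII oocytes, with means of 0.186% ± 0.0276 and 0.229% ± 0.0269 (SD, n = 6 each), or 1.23-fold. Serpine2 took 0.0160% to 0.0218% in GV and 0.0173% to 0.0272% in MII oocytes, with means of 0.0186% ± 0.00226 and 0.0232% ± 0.00343 (SD, n = 6 each), or 1.25-fold. MII oocyte 5 lay below 4 of the 6 GV oocytes for each gene. Fitted on library totals, a setting added after seeing the data, the log2 fold change was 0.30 for Plat (unadjusted p = 0.0389, edgeR adjusted p = 0.123) and 0.31 for Serpine2 (unadjusted p = 0.0347, edgeR adjusted p = 0.114), and the median of all genes was -0.24.

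**Figure D1:**
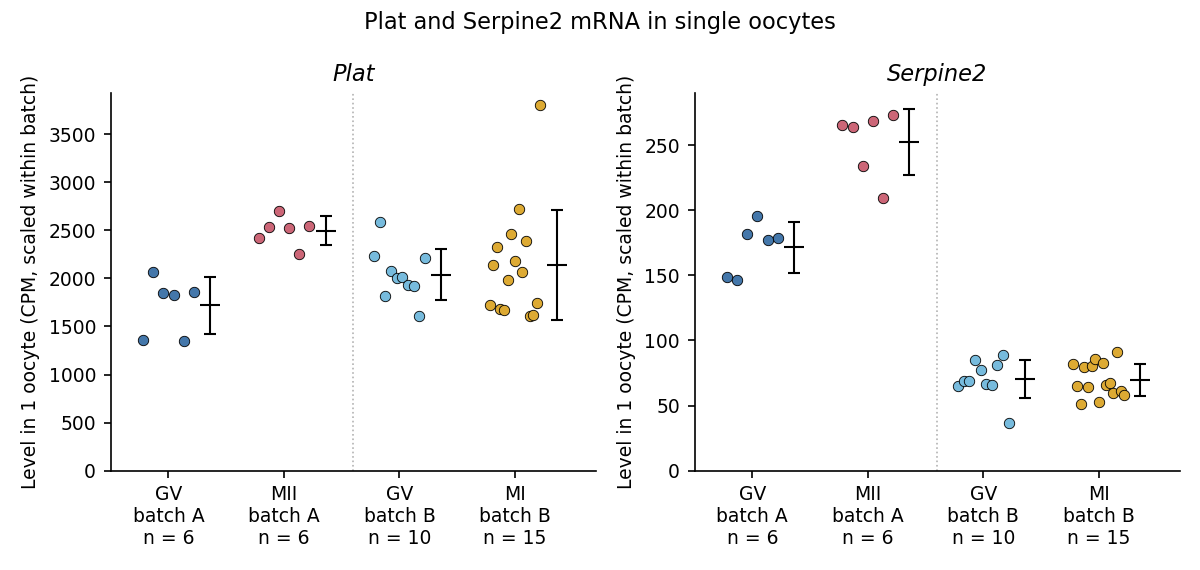
Level of Plat (left) and Serpine2 (right) in each oocyte, in CPM scaled by TMM within a batch, against stage and batch. Each point is 1 oocyte, the horizontal mark and bars are the mean ± SD, and the dotted line parts the batches, which were scaled apart. In batch A all MII oocytes lie above all GV oocytes for both genes, and in batch B the GV and MI oocytes overlap, with MI oocyte 15 at 3801 CPM of Plat.

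The direction, too, depended on what the counts were scaled to. ERCC spike-ins, synthetic RNAs added as a reference, held 44663 to 143062 counts in the oocytes of batch A and at most 32 in those of batch B, so that this scale exists for batch A only. The amount added to each oocyte is not given in the sources used here. Plat had 128 (oocyte 4) to 254 (oocyte 3) counts per 1000 spike-in counts in GV oocytes, with a median of 227, and 173 (oocyte 6) to 215 (oocyte 2) in MII oocytes, with a median of 187. The stages overlapped on this scale, with the lowest value of all 12 in a GV oocyte. The mean was 215 ± 46.9 at GV and 191 ± 16.7 at MII (SD, n = 6 each), a ratio of 0.889 (two-sided exact permutation test, p = 0.264).

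Without GV oocyte 4, the lowest, the GV mean was 232 ± 22.1 (SD, n = 5) and Plat was lower at MII, with a ratio of 0.823 (exact permutation test, p = 0.0216). Leaving out any other oocyte gave p from 0.212 to 0.459 in the same exact test. Serpine2 had 13.7 (oocyte 4) to 27.0 (oocyte 1) counts per 1000 spike-in counts in GV oocytes and 15.3 (oocyte 3) to 22.4 (oocyte 2) in MII oocytes. These ranges overlapped, with means of 21.7 ± 5.52 and 19.4 ± 2.75 (SD, n = 6 each), a ratio of 0.892 (exact permutation test, p = 0.374; from 0.117 without GV oocyte 4 to 0.628 without GV oocyte 1).

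In the fit across all genes with library sizes set from the spike-ins, the log2 fold change was -0.17 for Plat (SE 0.20, edgeR adjusted p = 0.473) and -0.16 for Serpine2 (SE 0.22, edgeR adjusted p = 0.536). The median of all 12929 genes moved from 0.01 under TMM to -0.72 under spike-in scaling, where 42.2% of the genes were lower and 1.11% higher at an adjusted p under 0.05. Relative to that median Plat lay at 0.53 under TMM and 0.55 under spike-in scaling, and Serpine2 at 0.54 and 0.55. New library sizes move all genes nearly alike, so that this distance could change little and is no separate test.

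**Figure D2:**
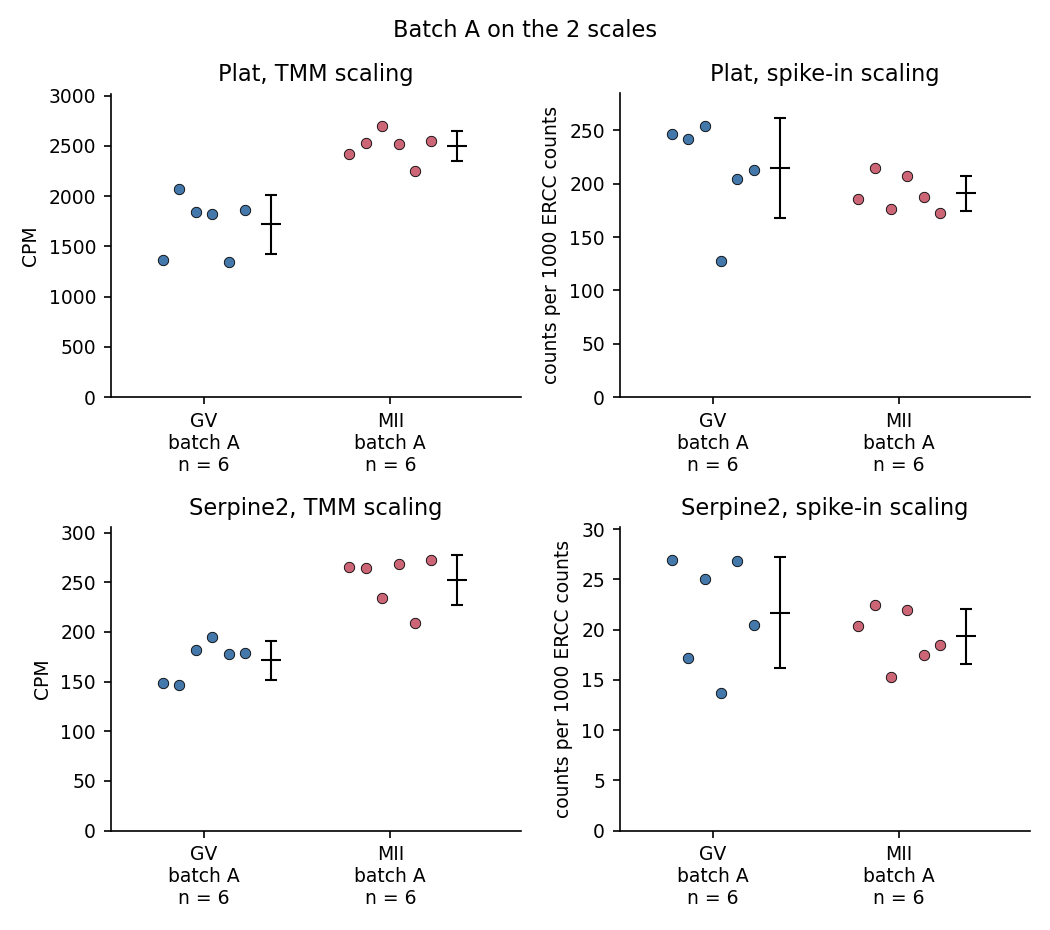
Plat (top) and Serpine2 (bottom) in the 6 GV and 6 MII oocytes of batch A, as TMM-scaled CPM (left) and as counts per 1000 ERCC spike-in counts (right). Points are oocytes, with the mean ± SD beside them. The gap between the stages on the left is absent on the right, where GV oocyte 4 is the lowest point for both genes.

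In batch B neither mRNA differed detectably between GV and MI. Plat ranged from 1606.5 CPM (oocyte 9) to 2588 CPM (oocyte 2) in GV oocytes, with a median of 2011 CPM. In MI oocytes it ranged from 1611 CPM (oocyte 12) to 3801 CPM (oocyte 15), with a median of 2070.1 CPM. The stages overlapped almost fully, and on this TMM scale MI oocyte 15 stood well above the next MI oocyte, at 2717 CPM. As a share of all counts, without TMM, MI oocyte 15 had 0.256% as Plat, inside the range of 0.145% to 0.322% (MI oocyte 7) of the MI oocytes. The library of MI oocyte 15 was also the shallowest, with 2709280 counts against 7184205 or more in the GV oocytes. It had the highest summed granulosa markers of its group on the same TMM scale (80.1 CPM). In the MI oocytes Nr5a2 alone reached up to 64.2 CPM, and Amh and Foxl2 had no counts. The part of depth or of these markers in its Plat level was not tested. The means were 2040.2 ± 265 CPM at GV (SD, n = 10) and 2141 ± 575 CPM at MI (SD, n = 15), a log2 change of 0.07 (SE 0.12, edgeR adjusted p = 0.898), or 1.05-fold with a 95% interval of 0.884 to 1.25. Without MI oocyte 15 the log2 fold change was -0.012 (edgeR adjusted p = 0.985). In this batch 0.145% of 12419 genes had an adjusted p under 0.05 and 0.121% also passed the fold of 2.

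Serpine2 likewise did not differ detectably between these stages. In GV oocytes of batch B it ranged from 36.9 CPM (oocyte 10) to 89.1 CPM (oocyte 9), with a median of 68.6 CPM, and in MI oocytes from 51.6 CPM (oocyte 3) to 91.1 CPM (oocyte 13), with a median of 65.7 CPM. All 15 MI oocytes lay within the range of the GV oocytes but for the highest. GV oocyte 10, far below the next GV oocyte at 64.7 CPM, had the highest summed granulosa markers of the GV oocytes of that batch (70.2 CPM). The means were 70.5 ± 14.6 CPM at GV (SD, n = 10) and 69.7 ± 12.6 CPM at MI (SD, n = 15). The log2 fold change was -0.015 (SE 0.13, edgeR adjusted p = 0.986), or 0.990-fold with a 95% interval of 0.825 to 1.19. On HTSeq counts it was 0.034 (edgeR adjusted p = 0.980).

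Whether the change to MII exceeded the change to MI was tested in a model of all 37 oocytes. For Serpine2 the difference between the changes was 0.64 on the log2 scale (SE 0.20, edgeR adjusted p = 0.0451), and 5.46% of the 15083 genes tested had an adjusted p under 0.05 there. For Plat it was 0.54 (SE 0.19, unadjusted p = 0.00748, edgeR adjusted p = 0.0950), above the threshold. The Serpine2 difference no longer passed on HTSeq counts (0.61, edgeR adjusted p = 0.135) without the low-count filter (0.58, edgeR adjusted p = 0.169) and on library totals (0.38, edgeR adjusted p = 0.474). Stage, batch and the way of maturation (in the animal for MII, in culture for MI) cannot be told apart in this difference.

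GV oocytes were the only stage in both batches, and there Plat was higher and Serpine2 lower in batch B on the TMM scale. On a scale set over all 37 oocytes, Plat averaged 1336 ± 247 CPM in the GV oocytes of batch A (SD, n = 6) and 2295 ± 299 CPM in those of batch B (SD, n = 10). Serpine2 averaged 133 ± 14.2 CPM and 79.3 ± 16.6 CPM in the same oocytes. The log2 difference of batch B from batch A was 0.78 for Plat (SE 0.14, edgeR adjusted p = 3.63e-05) and -0.75 for Serpine2 (SE 0.14, edgeR adjusted p = 5.80e-05). The batches did not overlap for either gene, from 999 to 1629.5 CPM against 1831 to 2916 CPM for Plat and from 115 to 149 CPM against 41.5 to 102 CPM for Serpine2. In this comparison 29.5% of 15083 genes had an adjusted p under 0.05 in either direction, and without overlap 5.6% were higher in batch B and 4.53% lower. On library totals, where the median of all genes was -0.69, the difference of Plat was 0.17 (edgeR adjusted p = 0.402) and that of Serpine2 -1.36 (edgeR adjusted p = 2.91e-08).

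Because both genes are read in the same library, the ratio of activator to inhibitor mRNA in an oocyte needs no scaling between libraries. With 0.5 added to each count and division by the length of the longest transcript, the log2 ratio of Plat to Serpine2 ranged from 2.68 to 3.57 in GV and from 2.94 to 3.27 in MII oocytes of batch A. The MII oocytes all lay inside the range of the GV oocytes. The means were 3.06 ± 0.29 and 3.06 ± 0.13 (SD, n = 6 each), or 8.35-fold and 8.33-fold more Plat than Serpine2 per kilobase (two-sided exact permutation test over 924 assignments, p = 0.987), and leaving out each oocyte in turn moved the difference between -0.081 and 0.097.

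In batch B the log2 ratio ranged from 3.92 to 5.65 in GV and from 3.90 to 5.77 in MI oocytes. The highest of each stage were GV oocyte 10, with the lowest Serpine2 of its stage, and MI oocyte 15. Among the MI oocytes, oocyte 15 had the highest Plat on the TMM scale, but as a share of all counts it stood out by the lowest Serpine2 (0.00391%). The means were 4.63 ± 0.47 (SD, n = 10) and 4.67 ± 0.47 (SD, n = 15), a difference of 0.043 (permutation test with 100000 resamples, p = 0.835). Between the batches the GV means differed by 1.57 on the log2 scale, with every GV oocyte of batch B above every one of batch A (exact permutation test, p = 0.00025, the smallest that 8008 assignments can give in 2 directions). What sets the batches apart was not tested.

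**Figure D3:**
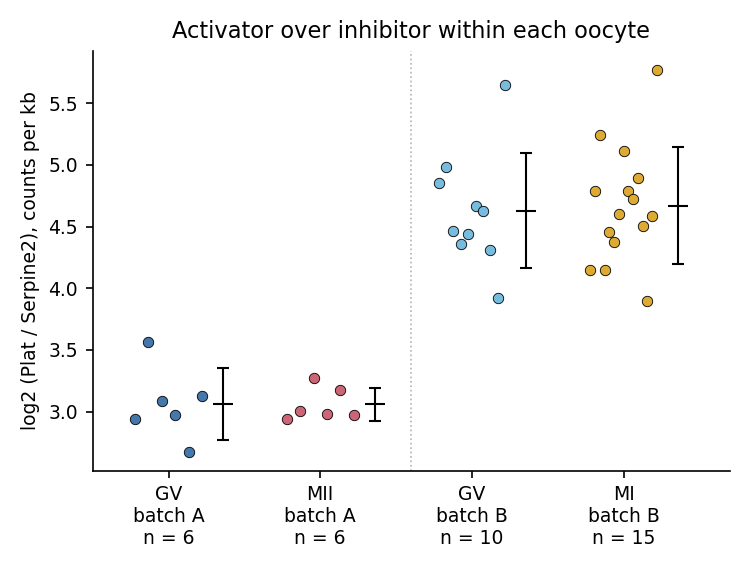
The log2 ratio of Plat to Serpine2 counts per kilobase in each oocyte, by stage and batch, with the mean ± SD (the vertical axis does not start at 0). Within a batch the stages share a mean of about 3.06 (batch A) or 4.63 to 4.67 (batch B), and the batches do not overlap, the highest oocyte of batch A being at 3.57 and the lowest of batch B at 3.90.

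Nearly all counts of both genes were assigned to Plat-201 and Serpine2-201, each the only transcript of its gene annotated with a 3′-UTR. Neither these shares nor a test of transcript usage can therefore show where within that 3′-UTR an mRNA ended. Plat-201 held 97.1% to 99.6% of the Plat counts of an oocyte, and Serpine2-201 held 93.4% to 100% of the Serpine2 counts. In batch A Plat-201 rose from 1727 ± 293 CPM at GV to 2486 ± 124 CPM at MII (SD, n = 6 each), by 0.52 on the log2 scale (SE 0.12, edgeR adjusted p = 0.0166 over 22461 transcripts). Serpine2-201 rose from 169 ± 20.3 CPM to 248 ± 25.5 CPM (SD, n = 6 each), by 0.56 on the log2 scale (SE 0.11, edgeR adjusted p = 0.00915). Of all transcripts tested, 3.49% were higher at an adjusted p under 0.05. Under spike-in scaling both turned, to -0.17 and -0.15, and neither then passed (edgeR adjusted p = 0.513 and 0.612). On library totals they had 0.30 and 0.33 (edgeR adjusted p = 0.163 and 0.144). Without MII oocyte 2 the adjusted p of Plat-201 was 0.0529, and without the low-count filter that of Serpine2-201 was 0.0889. With the replicate number as a block neither passed (edgeR adjusted p = 0.0661 for Plat-201 and 0.0713 for Serpine2-201).

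The other transcripts were minor. Plat-202, a 4042-base transcript annotated with a retained intron, held 0.885% ± 0.376 of the Plat counts at GV and 0.703% ± 0.197 at MII in batch A (SD, n = 6 each), and 1.58% ± 0.516 at GV (SD, n = 10) and 1.63% ± 0.502 at MI (SD, n = 15) in batch B. Serpine2-206, also a retained intron, held 2.30% ± 1.06 and 1.28% ± 0.849 of the Serpine2 counts in batch A, and 2.17% ± 0.977 and 1.96% ± 0.963 in batch B. Plat-203, a short noncoding transcript, had at most 47 counts and passed the low-count filter in batch B only. Serpine2-202, Serpine2-203, Serpine2-204 and Serpine2-205 never passed it, with at most 28.4 expected counts in an oocyte. No share moved detectably with stage: edgeR's test of transcript usage gave an adjusted p of 1 for both genes in batch A (unadjusted 0.921 for Plat and 0.413 for Serpine2) and 1.00 in batch B. In that test 2.33% of 5416 genes passed in batch A and 0.11% of 5472 in batch B. In batch B, Plat-201 and Serpine2-201 had log2 fold changes of 0.054 and -0.039 (edgeR adjusted p = 0.999 for both).

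The spread among the oocytes of a group was described without a test, and it depended on the scale. On the TMM scale the coefficient of variation of Plat was 17.1% in GV and 5.91% in MII oocytes of batch A, where genes over 100 CPM had medians of 20.9% and 16.0%. At MII 4.26% of the 1478 genes over 100 CPM varied less than Plat. Without MII oocyte 5 it was 3.87% at MII. As a share of all counts, without TMM, it was 14.8% in GV and 11.8% in MII oocytes. In batch B it was 13.0% in GV and 26.8% in MI oocytes on the TMM scale, and 17.7% at MI without MI oocyte 15. Serpine2 varied by 11.3% in GV and 9.99% in MII oocytes of batch A on that scale (5.90% without MII oocyte 5), and by 12.2% and 14.8% as a share of all counts. In batch B it varied by 20.8% in GV and 18.1% in MI oocytes on the TMM scale, and by 12.4% at GV without GV oocyte 10.

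Across the 12 oocytes of batch A the log2 levels of Plat and Serpine2 had a Pearson correlation of 0.79, and across the 25 of batch B it was -0.26. Within a stage it was 0.10 in GV and 0.46 in MII oocytes of batch A (n = 6 each), -0.43 in the 10 GV and -0.22 in the 15 MI oocytes of batch B. The points share the library, its depth and its scaling, and the value over batch A holds the difference between its stages. Ranked by the smaller of the correlations in the 2 batches over 11803 other genes, those most like Plat were Mtmr2 (0.81 in batch A and 0.79 in batch B), Tulp3 (0.82 and 0.77) and Ryk (0.75 and 0.77). Those most like Serpine2 were Pigm (0.57 and 0.58), Tesc (0.91 and 0.53) and Dpy19l4 (0.63 and 0.52), a weaker likeness.

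Of 22 genes of a list of activators, zymogen, inhibitors, receptors and clearance receptors, which includes the pair, 11 passed the low-count filter in batch A and 10 in batch B, where 12929 and 12419 of the 54752 genes passed. Among the activators, Plau, the urokinase gene, and F12, the factor XII gene, averaged under 1 CPM in every group, and so did Plg, the gene of plasminogen itself (0.265 to 0.351 CPM). Klkb1, plasma prekallikrein, is listed at 55.9 ± 26.1 CPM in GV and 16.0 ± 3.18 CPM in MII oocytes of batch A (SD, n = 6 each; log2 fold change -1.80, SE 0.25, edgeR adjusted p = 0.000173). On HTSeq counts, however, it had a mean of 2 counts per GV and 3.67 per MII oocyte, against 589 and 165 by RSEM, and failed the filter, so that its level is uncertain and Plat was the 1 activator well counted by both tools. The cause was not tested.

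Among the 8 inhibitors Serpine2 had the highest level per kilobase of the longest transcript, at 50.6 CPM per kilobase in GV and 74.4 in MII oocytes of batch A, and 20.8 in GV and 20.5 in MI oocytes of batch B. Serpini1 followed with 18.9, 16.3, 15.7 and 15.2 CPM per kilobase in the same order. Serpini1, neuroserpin, which also inhibits tissue-type plasminogen activator, had 77.5 ± 22.7 CPM at GV and 66.6 ± 12.8 CPM at MII in batch A (SD, n = 6 each; edgeR adjusted p = 0.453), and 64.4 and 62.1 CPM at GV and MI in batch B. Cpb2, a carboxypeptidase that removes plasminogen binding sites from fibrin, had 10.2 CPM in GV and 7.30 CPM in MII oocytes of batch A, a difference that did not pass (edgeR adjusted p = 0.198). Serpinb2, Serpina5, Serpinf2 and A2m averaged under 1 CPM in every group.

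Of the 5 receptors of plasminogen or its activators, Anxa2 and Eno1 were lower at MII. Anxa2, annexin A2, fell from 26.0 ± 4.16 CPM to 14.6 ± 3.63 CPM (SD, n = 6 each), a log2 change of -0.83 (SE 0.19, edgeR adjusted p = 0.00592). Eno1, the glycolytic enzyme enolase, which also binds plasminogen at the cell surface, fell from 37.5 ± 6.39 CPM to 18.4 ± 5.76 CPM, a log2 fold change of -1.03 (SE 0.20, edgeR adjusted p = 0.00261), and copies of similar sequence could share its reads. Plaur, the urokinase receptor, Plgrkt, a plasminogen receptor, and S100a10, which binds annexin A2, averaged at most 1.29 CPM in any group. Among the endocytic receptors that clear activator and inhibitor complexes, Lrp1 (44.3 to 65.7 CPM over the groups), Sorl1 (51.8 to 71.3 CPM) and Lrp2 (7.19 to 11.8 CPM) did not pass in either batch.

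Over the 11 members tested in batch A under TMM, 2 rose (Plat and Serpine2), beside 9.06% of all genes. Another 3 fell, the uncertain Klkb1 with Anxa2 and Eno1, beside 11.5% of all genes, and 6 did not pass. On HTSeq counts, where Klkb1 was not tested, 2 rose and 2 fell. Under spike-in scaling 0 were higher and 6 lower (Klkb1, Anxa2 and Eno1 again, with Serpini1, Cpb2 and Plaur), beside 1.11% and 42.2% of all genes. The median log2 fold change was -0.22 under TMM, beside 0.01 over all genes tested. Leaving out any single oocyte, MII oocyte 1 included, gave the same counts of 2 and 3, whereas 1 rose without the low-count filter, 0 rose and 3 fell on library totals, and 1 fell in the model of all 37 oocytes. In batch B 0 of the 10 members tested passed in edgeR or DESeq2, with 0.145% of all genes passing in edgeR. Of the 10, 2 had an unadjusted edgeR p under 0.05, beside 1371 of all 12419 genes.

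Other stored messages gave the setting for Plat. A list of 19 mRNAs known to be kept dormant or to act in meiotic maturation, Plat among them, was read the same way, and all 19 passed the low-count filter. In batch A 6 rose at MII under TMM, with 9.06% of all genes doing so: Plat, Bub1b (0.67), a spindle checkpoint kinase, Dcp1a (0.69) and Dcp2 (0.66), which remove the mRNA cap, and Cnot7 (0.47) and Cnot6l (0.41), which shorten poly(A) tails, in log2 fold change. Cdc6, a replication licensing factor, fell (-0.73, edgeR adjusted p = 0.00792), with 11.5% of all genes doing so, and 12 did not pass, among them Ccnb1, cyclin B1 (0.61, edgeR adjusted p = 0.0509), and Mos, the kinase that holds MII arrest (0.20, edgeR adjusted p = 0.417). The median was 0.31, beside 0.01 over all genes. Under spike-in scaling 0 were higher and 3 lower, beside 1.11% and 42.2% of all genes, with a median of -0.43 beside -0.72. Without the low-count filter 4 were higher, as Plat (edgeR adjusted p = 0.0908), Cnot7 (0.104) and Cnot6l (0.165) no longer passed and Ccnb1 (0.0340) did. On library totals 2 were higher, Dcp2 and Bub1b, and 1 lower, Cdc6. In the model of all 37 oocytes 6 were higher and 0 lower, so that Cdc6 did not pass there. Leaving out any single oocyte left 5 to 7 higher and 1 lower. In batch B 0 of the 19 passed in edgeR or DESeq2, with 0.145% of all genes passing in edgeR, and the median was -0.0083. Of the 19, 1 had an unadjusted edgeR p under 0.05, beside 1371 of all 12419 genes.

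**Figure D4:**
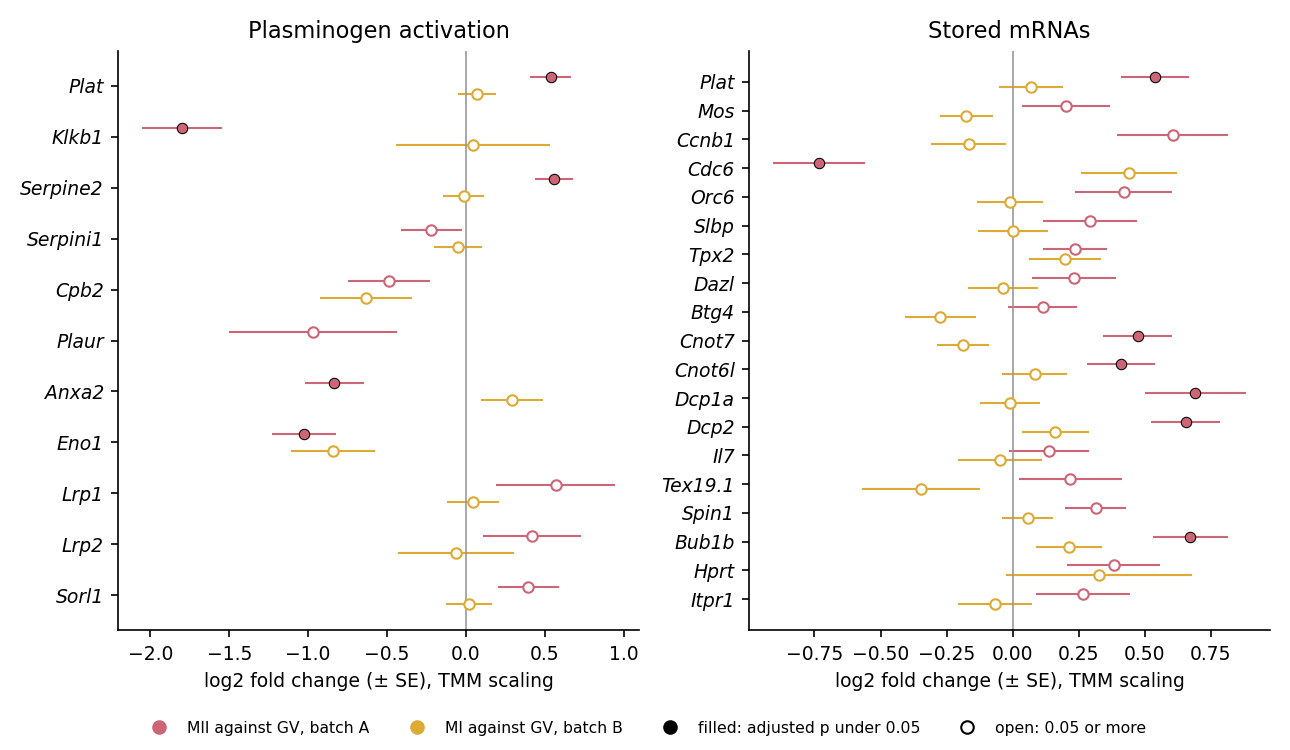
Log2 fold change (± SE, TMM scaling) of the tested members of the plasminogen list (left) and of the stored mRNAs (right), for MII against GV in batch A and MI against GV in batch B; filled points have an edgeR adjusted p under 0.05. Plat and Serpine2 stand together near 0.55 in batch A, with Klkb1, Anxa2 and Eno1 below 0, and no point of batch B is filled.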

How the data were processed

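Each oocyte gave 1 Smart-seq2 library. Per the study's methods and processing notes, the authors trimmed reads with Trim Galore 0.6.4 and estimated with RSEM 1.3.1 the expected counts of genes and transcripts that were deposited (mm10, GENCODE VM20, ERCC sequences). The deposited HTSeq counts were made by the authors with STAR 2.7.6a and HTSeq 0.12.4. Neither table was normalized. Names, positions and transcript sequences came from GENCODE M21 (GRCm38).

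Expected counts were rounded, the 92 spike-ins left out, and genes kept by filterByExpr tested in R 4.3.3 with edgeR 4.0.16 (quasi-likelihood test, TMM, Benjamini-Hochberg adjustment over all features tested). A result passed, and a gene rose or fell, at an adjusted p under 0.05; a gene or transcript counted as called also needed a fold over 2. Single values were compared by permutation in scipy 1.17.1. The fits were tested on simulated data, where the test of transcript usage made more false calls than its threshold allows. The filter on low counts was used because the test without it made many false calls on simulated counts in earlier work on these data. Alternatives were DESeq2 1.42.0, RLE factors, no filter, HTSeq counts, robust empirical Bayes, spike-in sizes, library totals, a model of all oocytes, the replicate number as a block and each oocyte left out. Reads carried no molecular identifiers. The genes and gene lists were chosen with earlier results of these data known. Named by rule are the pair, its transcripts, listed genes that passed or averaged at least 10 CPM in a group, and the 3 genes most correlated with each; other listed genes were named after their values were seen. A sequence of the proteins was not analysed here. One inhibitor of the list is not reported here by name.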

Additional observations from a re-analysis of the deposited data

Results flagged for a closer look

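Serpine2 in GV oocyte 10 of batch B, at 36.9 CPM, stood apart from the other 9 GV oocytes of that batch, which ranged from 64.7 to 89.1 CPM. The gap to the nearest of them was 0.533 of the whole range of the group, above Dixon's 95% critical value of 0.466 for 10 samples. Of 19 sets of values examined in this way (levels on 3 scales and the ratio of the genes in the groups of 6 and 10 oocytes) this was the only one past its critical value, and chance alone flags about 1 in 20. As a share of all counts, without TMM scaling, the same oocyte was lowest with a gap of 0.251 of the range, within the critical value.

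The change of Serpine2 from GV to MII in batch A differed from its change from GV to MI in batch B, by 0.64 on the log2 scale (edgeR adjusted p = 0.0451 in the model of all 37 oocytes; on the TMM scale it was higher in all 6 MII oocytes than in all 6 GV oocytes, as were 4.08% of genes, and overlapped in batch B). As a share of all counts the stages of batch A overlapped too. The adjusted p was 0.135 on HTSeq counts, 0.169 without the low-count filter and 0.474 on library totals. Stage and batch cannot be told apart in it.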

How the results depend on the processing

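Of 121 tested values of the pair under alternative settings other than leaving out an oocyte, 98 kept their direction and their side of the threshold, and of 26 counts of called genes or transcripts 11 stayed within 1.5 times the main count; the gene lists and ranks are not among these. Under spike-in scaling the changes at MII in batch A turned to -0.17 for Plat, -0.16 for Serpine2, -0.17 for Plat-201, -0.15 for Serpine2-201 and -0.48 for Plat-202 in log2 fold change, since that scale moves the median of all genes. On library totals without TMM, added after seeing the data, they were 0.30 for Plat, 0.31 for Serpine2, 0.30 for Plat-201 and 0.33 for Serpine2-201, with adjusted p of 0.114 to 0.163, and -0.0021 for Plat-202. The Serpine2 difference between the changes was then 0.38 and the Plat difference between GV batches 0.17. Without the low-count filter, which tests more features, Plat had 0.51 (edgeR adjusted p = 0.0908) and Serpine2-201 0.53 (adjusted p = 0.0889), and the Serpine2 difference between the changes had 0.58. On HTSeq counts that difference was 0.61. Serpine2 in batch B, near 0, changed sign on HTSeq counts (0.034, and 9.01e-05 without MI oocytes 4, 8 and 9), and the batch B ratio changed sign there to -0.042, and the cause was not tested.

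The replicate numbers do not pair the oocytes: same-numbered oocytes had correlations of -0.33 to 0.34 in batch A, with 1 of 6 pairs over 0.1 and 1 oocyte closest to its own number, and -0.15 to 0.11 in batch B, with 1 of 10 pairs over 0.1. With the replicate number as a block Plat-201 had 0.54 (edgeR adjusted p = 0.0661) and Serpine2-201 0.56 (adjusted p = 0.0713), while Plat and Serpine2 as genes kept adjusted p of 0.0280 and 0.0298. In batch B the block gave 0.019 for Serpine2 and 0.0028 for Serpine2-201.

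Genes called in batch A numbered 1095, 1859 without the filter, 2662 by adjusted p alone, 3919 under spike-in scaling, 653 in the model of all oocytes, 777 on HTSeq counts and 886 with the block. In batch B there were 15, against 40 without the filter, 116 by DESeq2, 107 in the model of all oocytes, 6 on library totals, and 0 with the block and on HTSeq counts, beside 1371 genes at an unadjusted p under 0.05. Transcripts called in batch A numbered 1252, 2089 by adjusted p alone, 4321 under spike-in scaling and 532 with the block. In batch B edgeR called 0 transcripts (1615 at an unadjusted p under 0.05), 2 without the filter and DESeq2 103.

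Leaving out each oocyte in turn gave 0.48 to 0.60 for Plat and 0.51 to 0.61 for Serpine2 in batch A, with adjusted p of at most 0.0202. Plat-201 ranged from 0.47 to 0.58 and no longer passed an adjusted p of 0.05 without MII oocyte 2. In batch B Plat ranged from -0.012 (without MI oocyte 15) to 0.11 and Serpine2 from -0.094 to 0.027. The log2 ratio difference ranged from -0.081 to 0.097 in batch A and from -0.036 to 0.16 in batch B. Per 1000 spike-in counts, where leaving out oocytes was added once the data had been seen, the difference of Plat ranged from -41.1 (without GV oocyte 4) to -15.9.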
